A study of Homo sapiens with 6 samples.

Results

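The genes described here encode the nuclear complex that writes N6-methyladenosine (m6A) on messenger RNA and the 2 enzymes known to remove it. The set was given by symbol and holds 10 genes: METTL3, METTL14, WTAP, VIRMA, RBM15, RBM15B, ZC3H13, CBLL1, FTO and ALKBH5. All 10 were found among the 32943 genes with counts, and all 10 passed the filter on low counts that left 17747 genes for testing. The study asked which genes respond when IGF2BP3, an RNA-binding protein that recognises m6A-modified mRNAs, is raised in cells labelled AGS, the name of a human gastric adenocarcinoma line. Polyadenylated RNA was sequenced in 3 libraries from cells given a control plasmid, whose content the labels do not describe further, and 3 libraries from cells given a pcDNA3.1 plasmid carrying 3xFlag-tagged IGF2BP3. All cells were transfected with a lipid reagent and harvested after 48 h, so the comparison is of cells soon after transfection and not of a stable clone. No modification was measured: the values are transcript counts, and say nothing of protein or of m6A itself.

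m6A is placed cotranscriptionally by a core dimer of METTL3, which binds the methyl donor S-adenosylmethionine and carries the active site, and METTL14, which has the same fold, helps bind the RNA and does not itself catalyse. A set of regulatory subunits holds this dimer in nuclear speckles and directs it to its sites: WTAP bridges to the dimer, VIRMA is a large scaffold, ZC3H13 anchors the complex in the nucleus, RBM15 and RBM15B bind RNA, and CBLL1 (also called HAKAI) is a RING-domain E3 ubiquitin ligase. FTO and ALKBH5 are dioxygenases that take the methyl group off again, and readers such as the YTH-domain proteins and the IGF2BP family bind the mark.

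The libraries held 33555366 to 37633587 counts. The gene counts of these 10 genes ran from 501 to 5387 per library, where counting error alone is 4.47% at the lowest and 1.36% at the highest. Control replicate 1 and overexpression replicate 3 lay farthest from the other libraries on the first principal component (71.3% of the variance), at −25.7 against −15.3 and −16.8 and at 25.9 against 15.2 and 16.7. Changes without 1 or both of them are given for METTL3, METTL14, CBLL1, WTAP, ZC3H13 and VIRMA. Levels, sums, shares and the other gene lists are given with all libraries only. IGF2BP3 was at 90.6, 102 and 100.2 CPM (gene counts scaled to an equal library size after the TMM normalisation of edgeR) in the controls and at 511, 573 and 664 CPM with overexpression. Of 10 gastric epithelial markers only 2, PGC and TFF1, had enough counts to be tested, and GKN1 and GKN2 were not listed in the count table. Of 6 epithelial markers, all tested, 2 fell, CDH1 (log2 fold change −0.56) and EPCAM (−0.16), and 4 did not pass (summed 9786 to 10260 CPM in the controls and 8868 to 10243 CPM with overexpression). All 10 hepatocyte markers were detected, with ALB, the plasma albumin gene of liver, at 1459 to 1546 CPM in the controls. All 10 fell: summed, they took 3777 to 3981 CPM in the controls and 2285 to 2544 CPM with overexpression. The marker genes thus go against the labelled gastric origin, and the values below describe the cells labelled AGS, whose identity was not tested. Of 8 fibroblast and smooth muscle markers, 7 could be tested, of which 4 fell and 1 rose (summed 269 to 278 CPM and 195 to 221 CPM). Of 6 leukocyte markers, 3 could be tested and 2 fell, CD14 and LYZ (summed 76.7 to 83.4 CPM and 28.2 to 38.3 CPM), while CD3E was at 0 counts in every control and PTPRC at 0.25 CPM or less in each library. The part of these shifts in the results below was not tested, and in bulk RNA fewer cells of a type and less RNA per cell cannot be told apart.

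Promoters of 9 of the 10 genes were matched by symbol in RefSeq (GRCh38.p14), as windows of 250 bases before to 50 after the RefSeq start. VIRMA was not among them. The start named with each stretch is this RefSeq start, which can differ from the GENCODE gene ends given further below. For CBLL1 and RBM15 the stretch lies inside the GENCODE gene, which begins at 107743697 and 110338506. The short stretches below show the ETS-type letters shared by METTL3, METTL14, ZC3H13 and CBLL1, and the E-box shared by the RNA-binding paralogs RBM15 and RBM15B. They were picked with the test results known. Each is 30 bases on the gene's own strand, 5′ to 3′, with the match in capitals (CCGGAAG or its reverse complement in the first 4, CACGTG in the last 2).
METTL3, chr14:21511452-21511481, minus strand, match starting 130 bases before the start: cctcactgtgtCCGGAAGcatgagagagcg
METTL14, chr4:118685345-118685374, plus strand, match starting 36 bases before the start: aggaggcgggaCTTCCGGgccaagcgagcc
ZC3H13, chr13:46052762-46052791, minus strand, match starting 34 bases before the start: taatctgacggCCGGAAGctgcctgggtct
CBLL1, chr7:107744074-107744103, plus strand, match starting 57 bases before the start: cctcccggcctCCGGAAGgcagtgcgcacg
RBM15, chr1:110339184-110339213, plus strand, match starting 181 bases before the start: aacactttgggtCACGTGaccgcagagtgc
RBM15B, chr3:51391193-51391222, plus strand, match starting 80 bases before the start: ccgccgcagagtCACGTGgcaggacggcgc

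Both strands were searched for 6 motifs, and overlapping matches were counted wherever they began. CCGGAAG was present for 4 of the 9 genes and in 10.3% of all 35116 RefSeq windows of this length, and CACGTG for 2 of 9 genes and in 7.26% of windows. The CCAAT box (CCAAT) was found for 6 genes (34.6% of windows), the GC box (GGGCGG) for 5 (45% of windows) and the TATA box (TATAAA) for 1 gene, METTL3 (11.5% of windows). The cyclic AMP response element TGACGTCA (1.85% of windows) was found for 0 of the 9 genes. These matches describe letters and not bound sites. The ETS-type match stood before the RefSeq start of METTL3, which fell, METTL14, which did not pass the test, and CBLL1 and ZC3H13, which rose. The part of any motif in these values was not tested.

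**Figure D1:**
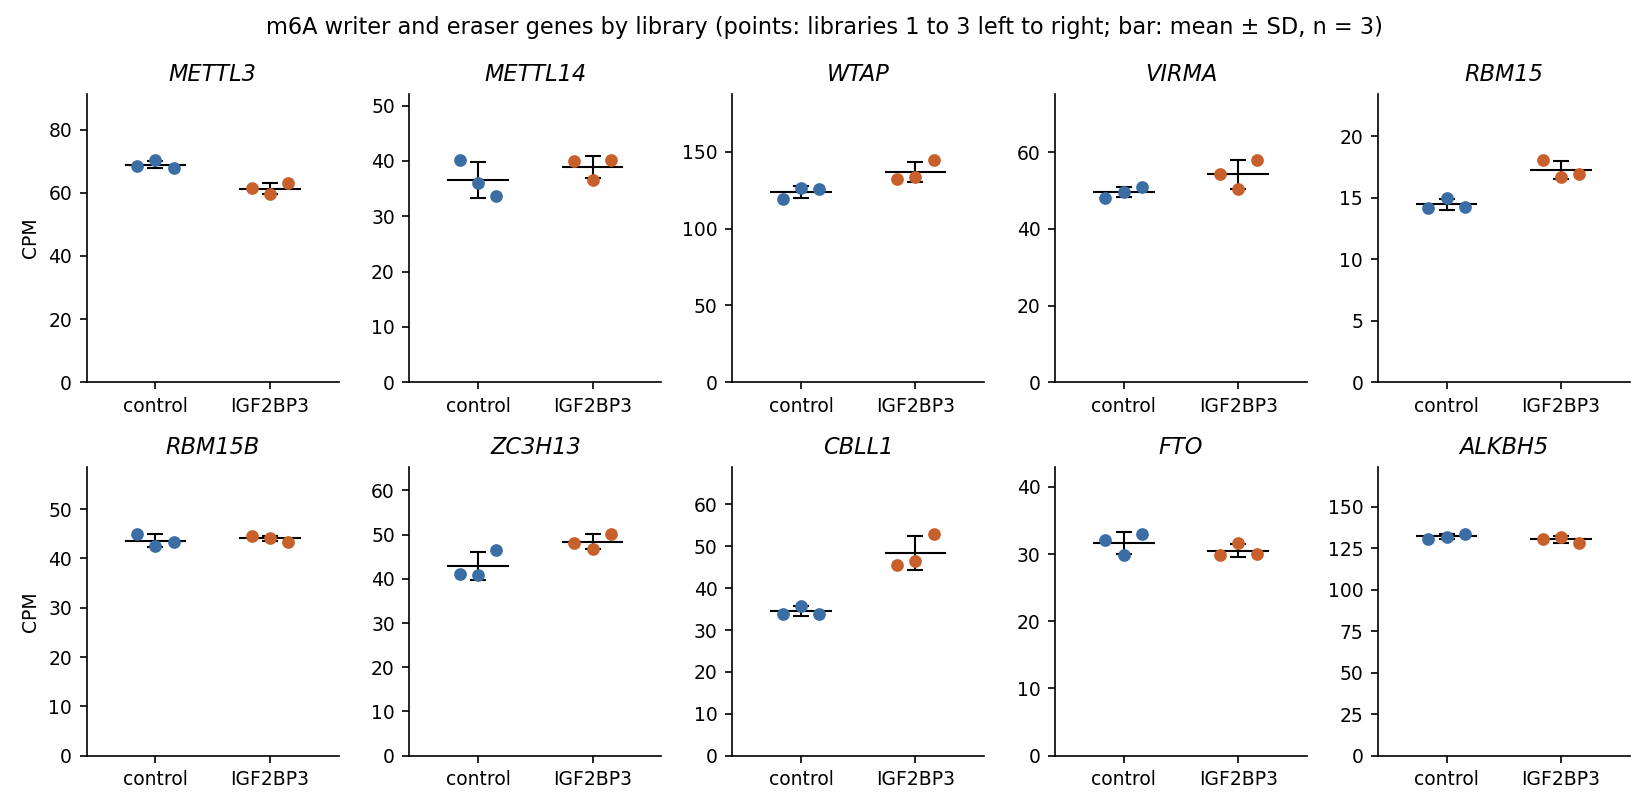
CPM of each gene (vertical axes, starting at 0) in the 3 control and 3 IGF2BP3 overexpression libraries, with 1 point per library and the mean ± SD. METTL3 is lower in all 3 overexpression libraries, WTAP, RBM15, ZC3H13 and CBLL1 are higher in all 3, and the groups overlap for the other 5 genes.

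With IGF2BP3 overexpression 4 of the 10 genes rose, 1 fell and 5 did not pass the threshold (edgeR quasi-likelihood test, adjusted p under 0.05 over all genes tested). The 4 that rose are regulatory subunits of the writer, CBLL1, RBM15, ZC3H13 and WTAP, and the 1 that fell is the catalytic subunit METTL3. Changes were small, from 0.889-fold for METTL3 to 1.40-fold for CBLL1. Of all genes tested 37.7% passed, 18.5% higher and 19.2% lower, and of the 9562 genes with a mean of at least 10 CPM 50.9% passed, 28.8% higher and 22.1% lower, so the count of these genes that passed is near that of genes at such levels. The even split over all genes rested on the scaling and the call rule: upper quartile scaling gave 2577 higher and 3949 lower, removal of a GC and length trend 4517 and 3034, and a fold of 1.5 or more 406 and 1268. The groups did not overlap for 5 of the 10 genes (4 higher and 1 lower), against 50.6% of all genes tested, 25.3% higher and 25.4% lower. Among genes of at least 10 CPM this share was 63%, 36.2% higher and 26.8% lower. The median log2 fold change of the 10 genes was 0.11, against −0.01 over all genes tested and 0.04 over those of at least 10 CPM. When control replicate 1 and overexpression replicate 3 were both left out, 3 genes passed (CBLL1 and RBM15 higher, METTL3 lower).

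**Figure D2:**
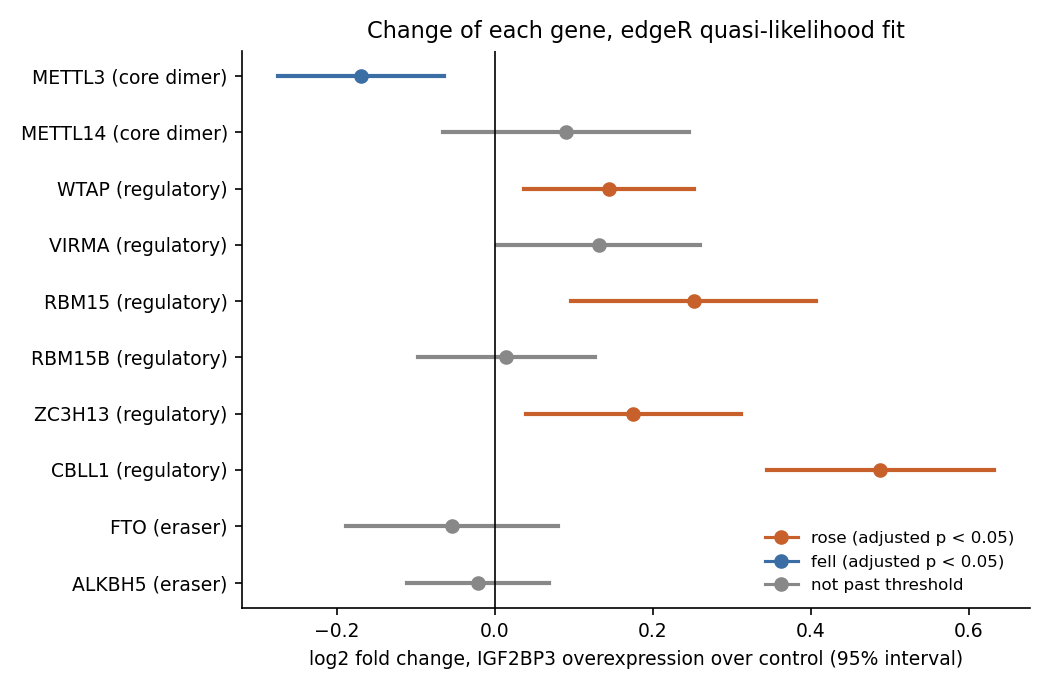
Log2 fold change of each gene, overexpression over control (horizontal axis), with its 95% interval from the edgeR fit, in order of role. The interval of METTL3 (−0.27 to −0.06) lies below 0, that of CBLL1 (0.34 to 0.63) farthest above it, and those of FTO, ALKBH5, RBM15B and METTL14 span 0.

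METTL3 (ENSG00000165819.12; GRCh38 chromosome 14, 21498133 to 21511375, minus strand) encodes the catalytic subunit. It was at 68.5, 70.3 and 67.9 CPM in the controls and at 61.3, 59.5 and 63.0 CPM with overexpression. Every overexpression library was below every control, and the library spread was small, 1.80% of the mean in the controls and 2.81% with overexpression. The mean went from 68.9 ± 1.24 to 61.3 ± 1.72 CPM (SD, n = 3 each), a log2 fold change of −0.17 ± 0.05 (SE; edgeR adjusted p = 0.016), or −11.1%. The size is modest beside the rest of the transcriptome: 60.4% of genes tested had an absolute log2 fold change at least as large. It had the same sign in all 19 alternatives computed. Its call ended without control replicate 2 (−0.15, edgeR adjusted p = 0.066), without overexpression replicate 1 (−0.16, adjusted p = 0.054) or 2 (−0.15, adjusted p = 0.068), with no filter on low counts (−0.15, adjusted p = 0.075) and with limma on the log2 scale of FPKM plus 1 (−0.11, adjusted p = 0.12) or plus 0.1 (−0.12, adjusted p = 0.12). With control replicate 1 and overexpression replicate 3 both left out it was −0.19 (adjusted p = 6.49e-04). The gene overlaps TOX4, on the opposite strand, over 388 exonic bases, 6.58% of its own exonic bases. TOX4 was higher in all 3 overexpression libraries (122 ± 1.68 and 131 ± 0.491 CPM, adjusted p = 0.062) and did not pass. Whether counting used the strand is not stated in these sources, so reads of the shared end could have been counted for either gene.

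METTL14 (ENSG00000145388.15; chromosome 4, 118685368 to 118715433, plus strand), the noncatalytic partner, did not pass. It was at 40.1, 35.99 and 33.60 CPM in the controls and at 40.04, 36.5 and 40.2 CPM with overexpression, and the groups overlapped. Its libraries varied most of the 10 genes in the controls (8.98% of the mean). The log2 fold change was 0.09 ± 0.07 (95% interval −0.07 to 0.25, edgeR adjusted p = 0.35). Control replicate 1 held the highest METTL14 of the controls, and without it the log2 fold change was 0.16 (adjusted p = 0.072). This was the highest value of the 19 alternatives. The lowest was 0.03, without control replicate 3 (edgeR adjusted p = 0.78) and with the GC and length trend removed. METTL14 passed in 0 of the 19.

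The core subunits bind each other in equal number, and the ratio of their counts inside a library needs no scaling between libraries. METTL3 had 1.71, 1.95 and 2.02 counts per METTL14 count in the controls and 1.53, 1.63 and 1.57 with overexpression. All 3 overexpression libraries were below the lowest control. The mean log2 ratio went from 0.92 ± 0.13 to 0.66 ± 0.05 (SD, n = 3 each), a difference of −0.26 (two-sided exact permutation p = 0.1, the smallest that 3 against 3 allow). Leaving out single libraries gave −0.33 to −0.21. Levels per length depend on the length used. The authors' FPKM (fragment counts scaled to gene length and library depth) followed the merged length of all annotated exons: over 11025 genes the length they imply was 1.178 times that length at the median (10th to 90th percentile 1.145 to 1.273), against 1.178 to 2.515 times the longest transcript. METTL3 has 5894 merged exonic bases but a longest transcript of 2523 bases, while METTL14 has 6862 and 6669. METTL3 stood at 2.21 ± 0.19 times the FPKM of METTL14 in the controls and 1.84 ± 0.06 times with overexpression. Per base of the longest transcript it stood at 5.01 ± 0.44 and 4.17 ± 0.13 times.

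**Figure D3:**
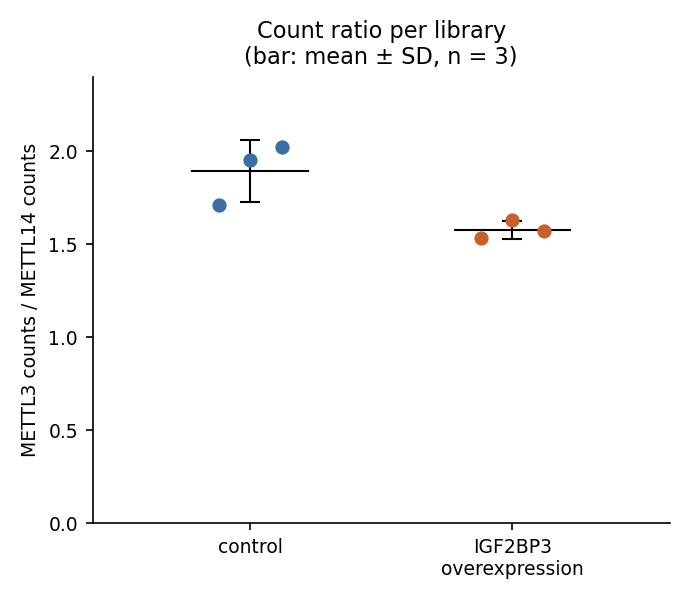
METTL3 counts divided by METTL14 counts in each library (vertical axis, starting at 0), with the mean ± SD. The controls sit between 1.71 and 2.02 and the overexpression libraries between 1.53 and 1.63.

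CBLL1 (ENSG00000105879.12; chromosome 7, 107743697 to 107761667, plus strand), the E3 ligase subunit, showed the largest change of the set. It was at 33.9, 35.8 and 33.8 CPM in the controls and at 45.6, 46.6 and 53.0 CPM with overexpression. The lowest overexpression library was well above the highest control. The mean rose from 34.5 ± 1.15 to 48.4 ± 4.05 CPM (SD, n = 3 each), or 1.40-fold; on the log2 scale the change was 0.49 ± 0.07 (SE; edgeR adjusted p = 1.434e-04). Of all genes tested 18.5% had an absolute log2 fold change at least as large. CBLL1 passed in all 19 alternatives, with log2 fold changes of 0.40 to 0.54. It was highest in overexpression replicate 3, and without that library the log2 fold change was 0.42 (edgeR adjusted p = 3.33e-04). The lncRNA AC002467.7, on the opposite strand over the start of CBLL1, shares 333 exonic bases with it. It had 56 to 83 counts per library, against 1200 to 1975 for CBLL1, and the processed pseudogene CBLL1P1 had at most 1 count.

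RBM15 and RBM15B are paralogs with RNA recognition motifs that recruit the complex to particular transcripts. RBM15 (ENSG00000162775.17; chromosome 1, 110338506 to 110346681, plus strand) was at 14.1, 14.97 and 14.2 CPM in the controls and at 18.0, 16.7 and 16.9 CPM with overexpression. The groups did not overlap. Its mean of 14.5 ± 0.448 CPM became 17.2 ± 0.735 CPM, a rise of 0.25 ± 0.07 on the log2 scale (edgeR adjusted p = 0.015). The call ended without control replicate 3 (0.24, adjusted p = 0.055) or overexpression replicate 1 (0.22, adjusted p = 0.060). RBM15B (ENSG00000259956.2; chromosome 3, 51391268 to 51397908, plus strand) was at 45.01, 42.5 and 43.2 CPM and at 44.5, 44.1 and 43.4 CPM, so the groups overlapped. Its log2 fold change of 0.01 ± 0.05 had a 95% interval of −0.10 to 0.13 (adjusted p = 0.85), and it changed sign under upper quartile scaling and without control replicate 2. The difference between the paralogs' changes was not tested. RBM15B shares 1325 exonic bases, 19.9% of its own, with DCAF1 on the opposite strand (819 to 977 counts per library), and RBM15 shares 175 with the antisense RBM15-AS1 (32 to 53 counts). For RBM15B this makes the level uncertain.

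WTAP, ZC3H13 and VIRMA build the scaffold. WTAP (ENSG00000146457.16; chromosome 6, 159725585 to 159756319, plus strand) was at 119, 126 and 126 CPM in the controls and at 132, 134 and 145 CPM with overexpression. The groups did not overlap, and the mean of 124 ± 4.16 CPM became 137 ± 6.76 CPM, a rise of 0.14 ± 0.05 on the log2 scale (edgeR adjusted p = 0.036). This call was close to the threshold. It ended without control replicate 1 (0.12, adjusted p = 0.093), 2 (0.16, adjusted p = 0.060) or 3 (0.16, adjusted p = 0.071), without overexpression replicate 2 (0.16, adjusted p = 0.054) or 3 (0.10, adjusted p = 0.091) and under upper quartile scaling (0.10, adjusted p = 0.11). With control replicate 1 and overexpression replicate 3 both left out it was 0.08 (adjusted p = 0.087). WTAP overlaps SOD2, on the opposite strand, over 298 exonic bases. The pseudogene WTAPP1 had 2 to 7 counts. SOD2 also rose (84.0 ± 2.79 to 93.2 ± 2.29 CPM, log2 fold change 0.15, adjusted p = 0.026).

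ZC3H13 (ENSG00000123200.17; chromosome 13, 45954465 to 46052759, minus strand) was at 41.2, 40.8 and 46.6 CPM in the controls and at 48.2, 46.8 and 50.2 CPM with overexpression. Control replicate 3 came close to the lowest overexpression library, without overlap. The mean of 42.9 ± 3.24 CPM became 48.4 ± 1.71 CPM, a rise of 0.18 ± 0.06 on the log2 scale (edgeR adjusted p = 0.043). Of the 19 alternatives 9 kept the call, and it ended without control replicate 1 (0.15, adjusted p = 0.10) or 2 (0.14, adjusted p = 0.15) and without overexpression replicate 1 (0.18, adjusted p = 0.086), 2 (0.20, adjusted p = 0.056) or 3 (0.15, adjusted p = 0.11). It also ended under upper quartile scaling, in both limma fits on FPKM and with the GC and length trend removed. With control replicate 1 and overexpression replicate 3 both left out it was 0.12 (adjusted p = 0.086). VIRMA (ENSG00000164944.12; chromosome 8, 94487693 to 94553529, minus strand) was at 48.2, 49.6 and 50.8 CPM and at 54.4, 50.5 and 58.0 CPM. Overexpression replicate 2 fell inside the control range, and the gene did not pass (log2 fold change 0.13 ± 0.06, 95% interval 0.0036 to 0.26, adjusted p = 0.099). Without that library it passed, at 0.18 (edgeR adjusted p = 0.042), the only 1 of its 19 alternatives that did. Without overexpression replicate 3 VIRMA was at 0.08 (adjusted p = 0.28) and without control replicate 1 at 0.11 (adjusted p = 0.20). With both of these left out it was 0.06 (adjusted p = 0.36).

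Among the regulatory subunits, CBLL1, WTAP, ZC3H13 and VIRMA were each highest in overexpression replicate 3, RBM15 in overexpression replicate 1 and RBM15B in control replicate 1. Summed over the 8 writer genes, the level was 409.97 to 416 CPM in the controls and 435 to 469 CPM with overexpression. By the authors' FPKM, METTL3 made up 19.2%, 19.3% and 18.9% of the summed writer level in the controls and 15.9%, 15.7% and 15.4% with overexpression. CBLL1 made up 10.6%, 11.1% and 10.5% and then 13.2%, 13.8% and 14.5%. The summed FPKM itself rose from 51.2 ± 1.54 to 57.8 ± 3.13 (SD, n = 3 each). METTL3 went from 9.80 ± 0.29 to 9.04 ± 0.37 FPKM, so its share fell by more, in proportion, than its level did. Both FPKM changes include a general shift: FPKM ran 1.04-fold higher relative to CPM with overexpression (median over genes). Per base of the longest transcript these shares were 27.6% to 28.3% and then 23.1% to 23.8% for METTL3, and 7.83% to 8.21% and then 10.1% to 11.1% for CBLL1, so their size rests on the length used and their direction was the same on both lengths. They carry no test, because they are sums over the chosen genes.

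The erasers did not pass. FTO (ENSG00000140718.21; chromosome 16, 53701692 to 54158512, plus strand), which acts on m6A and on the related cap-adjacent m6Am, was at 32.1, 29.8 and 33.0 CPM in the controls and at 29.8, 31.7 and 29.999 CPM with overexpression. The groups overlapped, and the log2 fold change was −0.05 ± 0.06 (95% interval −0.19 to 0.08, edgeR adjusted p = 0.52). ALKBH5 (ENSG00000091542.9; chromosome 17, 18183078 to 18209954, plus strand), a nuclear demethylase, was at 131, 132 and 134 CPM and at 131, 132 and 128 CPM. It had the narrowest interval of the set, −0.11 to 0.07 around −0.02 ± 0.04 (adjusted p = 0.72), and its sign turned in 4 alternatives, none of which called it. FTO and ALKBH5 passed in 0 of 19 alternatives each, and their unadjusted p-values in the edgeR fit were 0.40 and 0.62. The pseudogene FTOP1 had at most 4 counts, and RPGRIP1L, on the opposite strand, overlaps FTO without shared exonic bases. ALKBH5 shares 357 exonic bases with the lncRNA RP11-258F1.1 on the opposite strand, which had 19 to 36 counts.

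Levels of different genes were compared per length, on the authors' FPKM and so per merged exonic base. In the controls the order was ALKBH5 (30.6 ± 1.03 FPKM, SD, n = 3), WTAP (16.1 ± 0.894), METTL3 (9.80 ± 0.291), CBLL1 (5.50 ± 0.255), RBM15B (5.48 ± 0.0781), METTL14 (4.45 ± 0.296), VIRMA (3.83 ± 0.188), ZC3H13 (3.48 ± 0.320), RBM15 (2.58 ± 0.115) and FTO (1.23 ± 0.0709). The neighbours CBLL1 and RBM15B overlapped between libraries, as did VIRMA and ZC3H13, and all other neighbours were apart. The order of means was the same with overexpression. There CBLL1 (7.45, 7.64 and 8.92 FPKM) had moved away from RBM15B (5.74, 5.72 and 5.76 FPKM) and overlapped METTL3 (8.94, 8.72 and 9.45 FPKM). VIRMA there overlapped both METTL14 and ZC3H13. ALKBH5 stood 24.8 ± 1.249 times above FTO in the controls and 25.4 ± 0.640 times with overexpression. FTO has 21379 merged exonic bases and a longest transcript of 11766 bases, against 3190 and 2748 for ALKBH5. In CPM, which are not divided by length, FTO (31.7 ± 1.64) was above RBM15 (14.5 ± 0.448) and below ALKBH5 (132 ± 1.53) in the controls. The last place of FTO and the size of this ratio thus rest on the lengths used. Per base of the longest transcript, a length chosen after seeing the data, ALKBH5, WTAP, METTL3 and CBLL1 were again the highest 4 and RBM15 and FTO the lowest 2 in the controls, but VIRMA stood 5th and METTL14 7th. METTL3 (24.3 ± 0.682 CPM per kb) and CBLL1 (10.9 ± 0.914 CPM per kb) did not overlap on that length with overexpression, and ALKBH5 stood 17.9 ± 0.880 times above FTO in the controls. FPKM ran 1.04-fold higher in the overexpression group relative to CPM (median over 11472 genes). FPKM were therefore used for order and for shares of the writer sum, and counts and CPM for the main test of change.

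**Figure D4:**
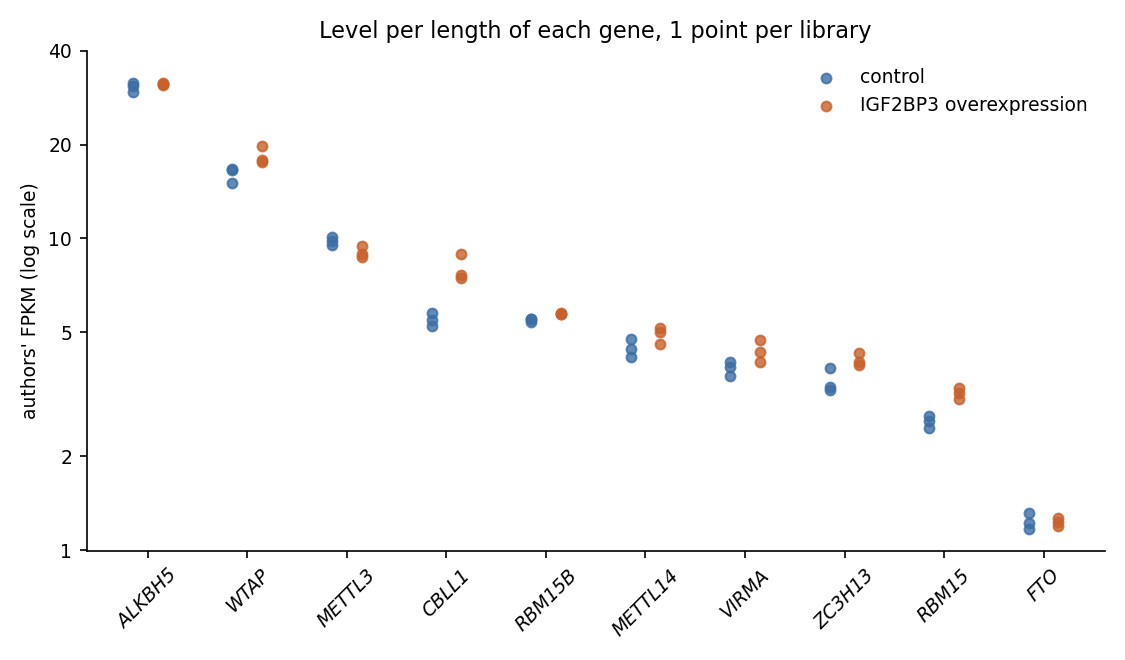
The authors' FPKM of each gene (vertical axis, log scale), 1 point per library, in the order of the control means. ALKBH5 is highest at 29.5 to 31.5 FPKM in the controls and FTO lowest at 1.17 to 1.31 FPKM. CBLL1 overlaps METTL3 with overexpression on this scale, which divides by a length that follows merged exonic length approximately.

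The 10 transcripts differed among themselves in base composition. Their longest annotated transcripts (GENCODE release 29) had a median GC content of 43.5%, against 48.5% over 13818 protein-coding genes tested, and ranged from 38.4% for METTL14 to 55.9% for RBM15B. GGACT, the letters most typical of an m6A site, occurred at a median of 0.92 per kb, against 0.93 per kb for the protein-coding genes. It was most frequent in VIRMA (1.53 per kb) and least in FTO (0.42 per kb), and CBLL1 (0.68 per kb) and METTL3 (0.79 per kb) both lay below the median.

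The rest of the m6A pathway was described by lists of genes, none tested as a list. The counts stand beside 18.5% higher and 19.2% lower over all genes tested, and 28.8% and 22.1% over those of at least 10 CPM. Of 6 other adenosine N6-methyltransferases and partners 3 rose and 3 did not pass (median log2 fold change 0.19). ZCCHC4, which methylates 28S rRNA, rose from 22.6 ± 1.28 to 31.9 ± 1.97 CPM (0.50 ± 0.07, adjusted p = 1.786e-04). METTL5, which methylates 18S rRNA, rose from 82.9 ± 3.75 to 101 ± 1.01 CPM (0.29 ± 0.05), and METTL16, which methylates U6 snRNA and MAT2A mRNA, from 32.1 ± 4.21 to 38.9 ± 2.09 CPM (0.28 ± 0.08, adjusted p = 0.021). Unlike METTL3, these enzymes work outside the writer complex.

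Of 14 m6A readers 5 rose, among them IGF2BP3 itself, 1 fell and 8 stayed under the threshold (median log2 fold change 0.06). YTHDF2, which brings m6A-marked mRNAs to decay, rose from 117 ± 5.57 to 156 ± 5.59 CPM (0.41 ± 0.05, edgeR adjusted p = 6.188e-05). IGF2BP1 (0.06 ± 0.04, adjusted p = 0.27) and IGF2BP2 (−0.02 ± 0.06, adjusted p = 0.86) did not pass. Of 8 genes of S-adenosylmethionine supply and recycling 2 fell and 6 did not pass (median 0.04). AHCY, which clears the by-product S-adenosylhomocysteine, fell from 375 ± 7.07 to 334 ± 16.4 CPM (−0.17 ± 0.04, adjusted p = 0.0093), and its relative AHCYL1 from 93.4 ± 1.40 to 77.9 ± 2.02 CPM (−0.26 ± 0.05). MAT2A, which makes S-adenosylmethionine and whose mRNA is a METTL16 target, was at 227 ± 3.76 and 230.4 ± 3.75 CPM (0.02 ± 0.04, adjusted p = 0.66).

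Of the 7 other AlkB-family genes, relatives of FTO and ALKBH5, 4 rose, 1 fell and 2 stayed under the threshold (median log2 fold change 0.42). The DNA repair gene ALKBH2 rose from 12.3 ± 0.864 to 20.8 ± 0.773 CPM (0.76 ± 0.08, edgeR adjusted p = 1.685e-05) and ALKBH1 from 10.4 ± 0.788 to 16.7 ± 0.563 CPM (0.68 ± 0.08). Of 12 enzymes of other base methylation, cap methylation and pseudouridine 10 rose and 2 stayed under the threshold (median 0.35), beside 28.8% higher over genes of at least 10 CPM. The smallest p-values were those of the rRNA methyltransferases NOP2 (0.76 ± 0.06, edgeR adjusted p = 2.385e-06) and NSUN5 (0.54 ± 0.04, adjusted p = 4.915e-06). Over all genes tested the median was −0.01.

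**Figure D5:**
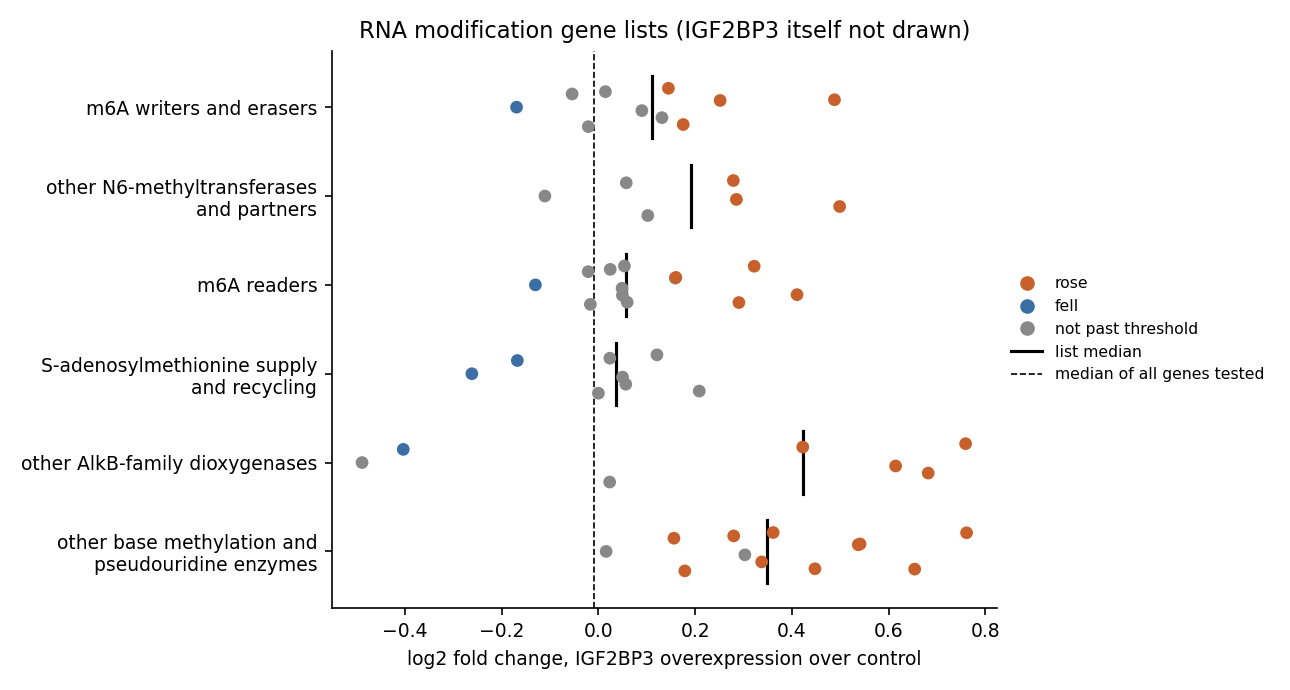
Log2 fold change, overexpression over control (horizontal axis), of every tested gene in 6 lists, coloured by call, with the median of each list (which for the readers includes IGF2BP3, not drawn) and of all genes tested. The medians of the writers and erasers (0.11), the readers (0.06) and S-adenosylmethionine supply (0.04) lie left of those of the other AlkB-family genes (0.42) and the other base-modifying enzymes (0.35).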

How the data were processed

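The files deposited by the authors hold unnormalized counts for 32943 genes and FPKM, rounded to 2 decimals, for 32477 genes. By comparison with the counts, the deposited FPKM follow merged exonic length approximately. HISAT2, DESeq2 and GRCh38 were used, per the submitters' processing notes, without versions; the counter, its strand setting and its annotation are not stated there, so genes that overlap on opposite strands may share reads. Libraries were grouped by title. The labels do not say whether they were separate cultures, so p-values cover library spread only, possibly technical. No pair agreed within sampling noise (chi-square per gene 2.04 or more).

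The count test was edgeR 4.0.16 (R 4.3.3): filterByExpr defaults (minimum count 10, minimum total 15), TMM scaling, the quasi-likelihood F test between groups over all 6 libraries, and Benjamini-Hochberg adjustment over 17747 genes, with a threshold of 0.05. Each standard error is the log2 fold change over the root of F. CPM are TMM-scaled, and principal components were taken on log2(CPM + 1). The pipeline was tested on simulated counts in which few genes changed, about as many up as down. In these data many more genes passed, so that test does not cover the scaling here. It also held no changes as small as those of METTL3 and WTAP. Alternatives were other scalings and filters, the replicate number as a block, DESeq2 1.42.0, limma 3.58.1 (voom, and log2 FPKM plus 1 or 0.1), removal of a GC and length trend (5-degree splines; 98.6% of genes matched), and libraries left out. Lists and named genes followed a rule: all 10 genes, the IGF2BP genes, the 2 called genes with the smallest p of each list, METTL16 and MAT2A, and overlapping or copied genes. CDH1, EPCAM, ALB, CD14, LYZ, CD3E and PTPRC are examples picked from fixed marker lists after values were seen. The genes and lists were chosen with earlier results of these data known. Gene positions are from GENCODE release 29 (GRCh38), and promoter windows and their starts from RefSeq.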

Additional observations from a re-analysis of the deposited data

How the results depend on the processing

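The count of the 10 genes past the threshold was 5 and lay at 2 to 3 when single libraries were left out, 3 under upper quartile scaling, 3 with limma on log2 FPKM plus 1, 3 with log2 FPKM plus 0.1, 3 without control replicate 1 and overexpression replicate 3 together, 4 with no filter on low counts (4 higher and 0 lower) and 4 with the GC and length trend removed (3 higher and 1 lower). It was 1 (CBLL1) at an adjusted p under 0.01, and 0 at a fold of 1.5 or more, while 6 had an unadjusted p under 0.05 in the edgeR fit. Fewer samples were tested when libraries were left out; the cause of the other losses was not tested. With DESeq2, limma-voom, the other scalings, the filter of at least 1 CPM and the replicate block the count stayed at 5. Over all genes 6698 passed, 4293 at an adjusted p under 0.01 and 1674 at a fold of 1.5 or more (406 higher and 1268 lower). With the GC and length trend removed, 4517 genes were higher and 3034 lower, and under upper quartile scaling 2577 and 3949, against 3288 and 3410. RBM15B, which never passed, turned to −0.0296 under upper quartile scaling and −0.0020 without control replicate 2 (−0.0020 to 0.0379 over single libraries left out). ALKBH5, which never passed, turned to 0.0032 with no filter, 0.0305 and 0.0314 with log2 FPKM plus 1 and plus 0.1, and 0.0697 with the trend removed.

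The labels do not state that the replicate numbers pair the samples. Deviations of same-numbered libraries from their group means correlated at 0.141, −0.141 and 0.139, and not every library correlated best with its own number. With 3 libraries per group these correlations cannot decide whether the samples were paired. With the replicate block 6848 genes passed, 5 of them among the 10, and no call among the 10 changed. Counting error was largest for RBM15, at 4.47% for its lowest count of 501, and RBM15 passed in 17 of 19 alternatives.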
